A study of Mus musculus with 18 samples.

Results

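Pparg and 6 genes of hepatic fatty acid uptake and handling (Cd36, Vldlr, Lpl, Fabp4, Fabp2 and Mogat1) were followed in polyA RNA from livers of wild type C57BL/6J mice. The 7 genes were listed by name, with earlier results of these data known. Each was represented by the RefSeq transcript row with the highest mean over 18 libraries. All 7 were among 24040 genes in the table and among 10358 genes that passed the filter of at least 1 RPKM in at least 3 libraries. RPKM, the unit of every level below, is reads mapped to a transcript, scaled to its length and to the size of the library. The mice had been treated from 5 weeks of age and liver RNA was taken at 62 weeks. The 6 groups of 3 libraries were HF+CR, HF+Ex, HF, LF+CR, LF+Ex and LF, read here as high-fat (HF) or low-fat (LF) diet, with caloric restriction (CR), with exercise (Ex) or with neither. The labels give neither the sex of the mice nor the composition of the diets, and do not say that each library is a separate animal, so p-values measure the spread between these libraries.

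PPAR gamma, the product of Pparg, is a nuclear receptor that binds fatty acids and pairs with a retinoid X receptor on DNA to switch on genes of lipid storage. It is most abundant in fat tissue, where it drives the formation of fat cells, and is known to be raised in fatty mouse liver. Its PPAR gamma 2 form starts from its own promoter and carries extra amino acids at its beginning. Among its known targets are CD36, which brings long-chain fatty acids across the plasma membrane, and FABP4, which carries them in the cytoplasm.

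The liver identity was checked first. The summed level of 8 hepatocyte markers lay between 22716 and 56549 RPKM in the 18 libraries, although albumin was listed at 0 in 14 of them, so an exact 0 in this table may be a failed estimate and is given here as listed. Albumin had a value only in the HF+Ex libraries and HF 1, at 30395 to 33218 RPKM. The sum was 50746 to 56549 in those libraries and at most 31711 elsewhere. Depth, estimated from the size of a single-fragment step, was about 23400000 to 44900000 fragments per library. Pancreas markers stood out in LF+CR 1 (1764 RPKM summed), HF+CR 1 (265.5) and LF+Ex 1 (32.2), and HF+CR 2 reached 38.4, while the other libraries summed to at most 12.7. The 3 pancreas libraries left out where stated are LF+CR 1, HF+CR 1 and LF+Ex 1, and HF+CR 2 stayed in although its sum was above that of LF+Ex 1. Bile duct markers were highest in HF+CR 3 (166 RPKM) and LF 2 (147), against at most 74.6 elsewhere. Spp1, which macrophages also make, was 155 RPKM of the sum in HF+CR 3 and 138.3 in LF 2, and the other 5 markers summed to 11.1 and 8.99 RPKM there, against 10.4 in LF+Ex 1 and at most 3.76 elsewhere. The libraries called bile duct libraries below thus stand out mainly by Spp1. In bulk tissue, fewer cells of a type and less RNA per cell cannot be told apart.

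Pparg had 2 rows. NM_001127330, the row with the higher mean, encodes PPAR gamma 1 with 475 codons, on chr6:115360951-115490399 (GRCm38, plus strand, GENCODE models). NM_011146 encodes PPAR gamma 2 with 505 codons and begins at 115422066 within that span. The pair share 1640 bases, and NM_011146 has only 127 bases of its own, so the deposited division of reads between them rests on few bases. Most of its own coding bases lie in a single exon, chr6:115422111-115422192. They are shown because they tell the rows apart, with the start codon in capitals.
Pparg NM_011146 own coding bases: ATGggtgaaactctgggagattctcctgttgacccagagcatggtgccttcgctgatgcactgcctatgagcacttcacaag

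The promoters of Pparg, from RefSeq on GRCm38.p6, also differ in sequence. Each window holds 250 bases before and 50 after the start, on the plus strand. The upstream window, chr6:115360894-115361193, has 80.3% G or C, and the capitals mark the hexamer AGGTCA, the core motif of nuclear receptors. Its start, 115361144, differs from that of the NM_001127330 model, 115360951, so the window is not assigned to that row. A further Pparg window, with its start at 115362349, has 62.7% G or C and also holds AGGTCA, and is not shown. The window of PPAR gamma 2, chr6:115421816-115422115, has 40.3% G or C and no AGGTCA on either strand.
Pparg start at 115361144: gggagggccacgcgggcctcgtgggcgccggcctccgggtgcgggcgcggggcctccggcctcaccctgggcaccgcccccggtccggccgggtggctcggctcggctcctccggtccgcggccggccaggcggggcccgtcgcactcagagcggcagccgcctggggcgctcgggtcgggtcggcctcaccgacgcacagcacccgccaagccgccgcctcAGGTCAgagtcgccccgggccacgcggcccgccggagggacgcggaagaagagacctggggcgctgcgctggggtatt
Pparg start at 115422066: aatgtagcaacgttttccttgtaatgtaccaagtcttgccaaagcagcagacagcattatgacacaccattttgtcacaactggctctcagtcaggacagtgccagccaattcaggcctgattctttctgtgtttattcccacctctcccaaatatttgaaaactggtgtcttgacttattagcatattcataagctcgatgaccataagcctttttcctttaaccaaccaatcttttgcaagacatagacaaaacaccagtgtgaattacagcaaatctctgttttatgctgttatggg

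AGGTCA was present on either strand in 3 of 8 promoters of the 5 genes with an entry (Pparg, Cd36, Vldlr, Fabp2 and Mogat1), against 16.3% of 32851 mouse promoters. No promoter of these genes held AGGTCANAGGTCA, a pair of hexamers 1 base apart, which 0.0396% of all promoters hold. A match is a description of the letters in the window, and does not show binding.

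The PPAR gamma 2 row, NM_011146, was higher on the high-fat diet averaged over treatments, and lower with caloric restriction averaged over both diets. It stood at 1.39, 1.10 and 2.94 RPKM in HF+CR livers, at 9.28, 4.54 and 5.34 in HF+Ex livers and at 8.53, 9.17 and 9.14 in HF livers. On the low-fat diet it stood at 0.540, 0 and 0.628 in LF+CR livers, at 2.07, 0 and 3.57 in LF+Ex livers and at 1.20, 1.05 and 2.57 in LF livers. Every HF and HF+Ex library was above every library of the other 4 groups, and HF+CR libraries overlapped with LF and LF+Ex libraries. For scale, HF lay wholly above LF in 7.96% of all genes tested, and HF+Ex wholly above LF+Ex in 24.2%. Those shares take each gene by its row of highest mean, which NM_011146 is not.

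Fold changes were tested with limma on log2(RPKM + 1), which understates the change of low genes, with Benjamini-Hochberg adjustment over all genes or rows tested. A result was called at an adjusted p under 0.05. The groups share a common estimate of the spread. Leaving out a library outside a comparison therefore changes its SE and adjusted p but not its difference. A call gained in that way is no independent evidence. In the fit over 12175 single rows, NM_011146 was higher on HF averaged over the 3 treatments, with a log2 difference of 1.51 ± 0.25 (SE, adjusted p = 0.00166, 9 libraries each, limma), and 11.9% of all rows were called higher. It was lower with CR averaged over both diets, by a log2 difference of -1.39 ± 0.31 (SE, adjusted p = 0.0183, limma), where 3.33% of all rows were called lower. The CR call was lost without the 3 pancreas libraries (adjusted p = 0.0754), without HF+CR 2 (0.0506), with a pseudocount of 0.1 (0.0844) and with no filter (0.0628). Single comparisons of 3 against 3 did not pass, with a log2 difference of 1.98 ± 0.44 in HF against LF (adjusted p = 0.0703, limma), 1.56 ± 0.44 in HF+Ex against LF+Ex (0.0615) and -1.88 ± 0.44 in HF+CR against HF (0.0569). Leaving out LF+Ex 3 brought all of these across the threshold, leaving out LF+Ex 2 the first and the last, and leaving out HF+CR 3 the second and the last, with adjusted p of 0.0121 to 0.0469. HF against LF and HF+CR against HF hold no LF+Ex library, so only the SE fell there. The same is true of HF+Ex against LF+Ex without HF+CR 3. Further from the threshold were LF+CR against LF (-0.90 ± 0.44, adjusted p = 0.261, limma) and HF+CR against LF+CR (0.99 ± 0.44, 0.177). Neither passed in any fit without 1 library.

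The PPAR gamma 1 row did not show that pattern. NM_001127330 stood at 2.86, 4.11 and 7.05 RPKM in HF+CR livers, 3.97, 3.17 and 3.50 in HF+Ex livers and 3.64, 4.39 and 1.501 in HF livers. It stood at 7.32, 8.60 and 7.18 in LF+CR livers, 0.307, 2.31 and 2.10 in LF+Ex livers and 4.76, 9.38 and 1.97 in LF livers. HF and LF livers overlapped, and LF+CR livers had the highest mean. HF+Ex libraries were all above LF+Ex libraries, as in 24.2% of all genes tested. HF+CR libraries were all below LF+CR libraries, as in 15.7%, so the direction differed between treatments. The HF difference averaged over treatments was -0.08 on the log2 scale (95% interval -0.61 to 0.44, adjusted p = 0.840, limma), and no comparison of this row was called.

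The share of NM_011146 in the summed Pparg level was 21.2% to 32.8% in HF+CR livers, 58.8% to 70.0% in HF+Ex livers and 67.6% to 85.9% in HF livers. It was 0% to 8.04% in LF+CR livers, 0% to 87.1% in LF+Ex livers and 10.1% to 56.6% in LF livers. HF livers thus lay above LF livers in share, and LF+Ex livers spanned almost the whole range. These shares are ratios of estimates and no interval can be given for them, since the deposited values carry no read counts.

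**Figure D1:**
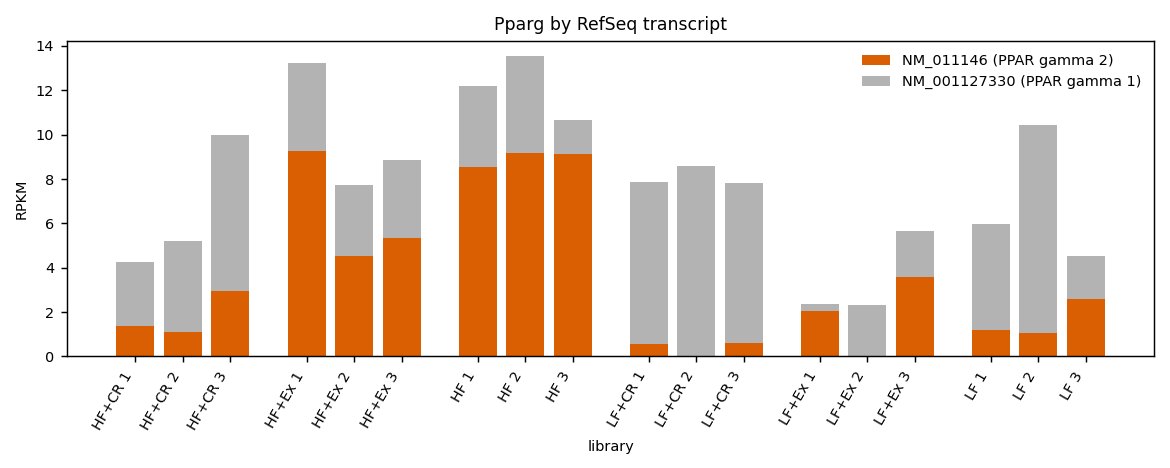
Stacked bars of the 2 Pparg rows in RPKM for each of 18 libraries, with the PPAR gamma 2 row at the bottom. The PPAR gamma 2 bar stands at 8.53 to 9.17 RPKM in HF livers and at 1.05 to 2.57 RPKM in LF livers, while their PPAR gamma 1 parts overlap.

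The sum of both rows depends less on how reads were divided, though each row is scaled to its own length (1767 bases for NM_011146 and 2125 for NM_001127330), so a read moved between them still changes it. Summed Pparg was 4.25, 5.21 and 9.99 RPKM in HF+CR livers, 13.2, 7.71 and 8.85 in HF+Ex livers and 12.2, 13.6 and 10.6 in HF livers, against 7.86, 8.60 and 7.80 in LF+CR livers, 2.37, 2.31 and 5.67 in LF+Ex livers and 5.96, 10.4 and 4.54 in LF livers. The lowest HF library, at 10.6, and LF 2, at 10.4, were too close to be told apart given that division. On the sum, Pparg was higher on HF averaged over treatments (log2 difference 0.59 ± 0.18, SE, adjusted p = 0.0269, limma) and in HF+Ex against LF+Ex (1.35 ± 0.31, adjusted p = 0.0248). HF against LF on the sum did not pass (0.78 ± 0.31, adjusted p = 0.218, limma).

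Cd36, the fatty acid translocase, had no call in any of 12 comparisons on its main row. It measured 5.28, 13.2 and 18.6 RPKM in HF+CR livers, 31.4, 34.1 and 34.2 in HF+Ex livers and 24.5, 50.2 and 40.8 in HF livers. In the low-fat groups it measured 24.3, 25.7 and 20.2 in LF+CR livers, 9.05, 4.70 and 32.6 in LF+Ex livers and 36.5, 36.4 and 25.6 in LF livers. HF+CR libraries were all below HF libraries and all below LF+CR libraries, as in 8.28% and 15.7% of all genes tested. HF and LF livers overlapped, and LF+Ex 3 stood apart from the other LF+Ex libraries. The log2 difference was -1.65 ± 0.50 in HF+CR against HF (SE, adjusted p = 0.138, limma) and -1.06 ± 0.35 for CR averaged over both diets (adjusted p = 0.0802). Without LF+Ex 3 both passed, with adjusted p of 0.0314 and 0.0193 (limma), and the second also passed without HF+CR 3 (0.0466) or LF+Ex 2 (0.0474). LF+Ex is in neither comparison, so leaving out its libraries narrowed the SE and left the differences unchanged. HF+Ex against LF+Ex, 1.46 ± 0.50 with an adjusted p of 0.0978, passed without LF+Ex 3, which belongs to it (2.18, adjusted p = 0.00895). The HF difference averaged over treatments was 0.21 (95% interval -0.40 to 0.83).

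Cd36 had 5 rows. NM_001159555 was listed at 0 in every library and NM_001159558 reached at most 0.140 RPKM. NM_001159557 lay close to the main row, with log2 differences of -0.94 for CR averaged over both diets and 1.34 in HF+Ex against LF+Ex. NM_007643 was lower in level, at 5.08, 2.999 and 6.22 RPKM in HF+CR livers, 4.99, 6.74 and 7.98 in HF+Ex livers and 4.42, 6.31 and 3.71 in HF livers, against 1.92, 4.24 and 2.69 in LF+CR livers, 1.52, 1.76 and 4.88 in LF+Ex livers and 1.93, 2.25 and 1.07 in LF livers. Every HF library was above every LF library on this row, a separation found in 7.96% of all genes tested, each by its row of highest mean. It was higher on HF averaged over treatments, by a log2 difference of 0.91 ± 0.19 (SE, adjusted p = 0.00460 over rows, limma), and its CR difference was 0.24 ± 0.23 (adjusted p = 0.588). The rows share most of their bases, so the division between them is uncertain here too.

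Vldlr, the receptor for very-low-density lipoprotein, was near the detection filter. It measured 0.344, 1.15 and 0.582 RPKM in HF+CR livers, 0.990, 1.502 and 1.52 in HF+Ex livers and 0.983, 1.74 and 0.857 in HF livers, against 1.25, 1.78 and 1.27 in LF+CR livers, 0.182, 0.411 and 0.530 in LF+Ex livers and 1.21, 1.12 and 0.442 in LF livers. HF+Ex libraries were all above LF+Ex libraries, as in 24.2% of all genes tested. HF+CR libraries were all below LF+CR libraries, as in 15.7%, and HF and LF libraries overlapped. Vldlr was called higher in HF+Ex against LF+Ex (log2 difference 0.77 ± 0.21, SE, adjusted p = 0.0490, limma), a call that 12 of 18 leave-one-out fits lost, with adjusted p up to 0.180. In HF+CR against LF+CR the difference was -0.55 ± 0.21 (adjusted p = 0.115, limma), and on the sum of its rows -0.71 (0.0142). The CR by diet interaction did not pass (-0.74 ± 0.30, adjusted p = 0.342, limma).

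Lpl encodes lipoprotein lipase, which frees fatty acids from circulating triglyceride and is made mainly by fat, muscle and macrophages. It measured 3.30, 2.81 and 20.96 RPKM in HF+CR livers, 9.56, 9.50 and 7.43 in HF+Ex livers and 5.68, 11.01 and 4.72 in HF livers, against 2.62, 3.27 and 2.49 in LF+CR livers, 1.91, 1.94 and 2.27 in LF+Ex livers and 2.20, 7.33 and 1.25 in LF livers. HF+CR 3 was the highest of all libraries and LF 2 the highest on the low-fat diet, and these were also the libraries with the highest bile duct sum. Leaving those libraries out thus removes the highest Lpl value of each diet, which by itself narrows the spread of Lpl. The calls without them given next are therefore no independent evidence. Lpl was higher on HF averaged over treatments, with a log2 difference of 1.19 ± 0.31 (SE, adjusted p = 0.0141, limma), and of 1.10 ± 0.14 without those libraries (adjusted p = 0.000356). Without them HF against LF was called as well (1.52 ± 0.25, adjusted p = 0.0184), against 0.98 ± 0.54 (0.377) with them, and HF+CR against HF moved to -0.93 ± 0.25 (0.0559), against -0.12 ± 0.54 (0.955). HF+Ex against LF+Ex, 1.69 ± 0.54 (adjusted p = 0.0818), passed without HF+CR 3 alone (0.0153), a library outside that comparison.

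Macrophage markers moved with Lpl. Summed over 13 of 14 listed markers found in the table, they lay between 166 and 344 RPKM in HF+CR livers, 280 and 346 in HF+Ex livers and 206 and 442 in HF livers, against 100.1 and 151 in LF+CR livers, 141 and 204 in LF+Ex livers and 133 and 340 in LF livers. Across the 18 libraries, which share groups, the correlation of Lpl with that sum on the log2 scale was r = 0.86, and r = 0.86 also with group means removed. Lpl followed the bile duct sum, which is mostly Spp1, with r = 0.85, and r = 0.95 with group means removed. The macrophage sum was highest in HF 2, at 442 RPKM, against 344 in HF+CR 3. Gpnmb and Trem2, genes of lipid-associated macrophages, peaked in HF+CR 3, at 19.6 and 8.74 RPKM, as did Lyz2 and Ccr2. Adgre1, Clec4f, Csf1r, Mpeg1, Vsig4 and Cd5l peaked in HF 2, Marco and Itgam in LF 2 and Timd4 in HF+CR 1. The part of macrophages in the Lpl difference was not tested. Muscle markers summed to at most 0.918 RPKM in any library.

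**Figure D2:**
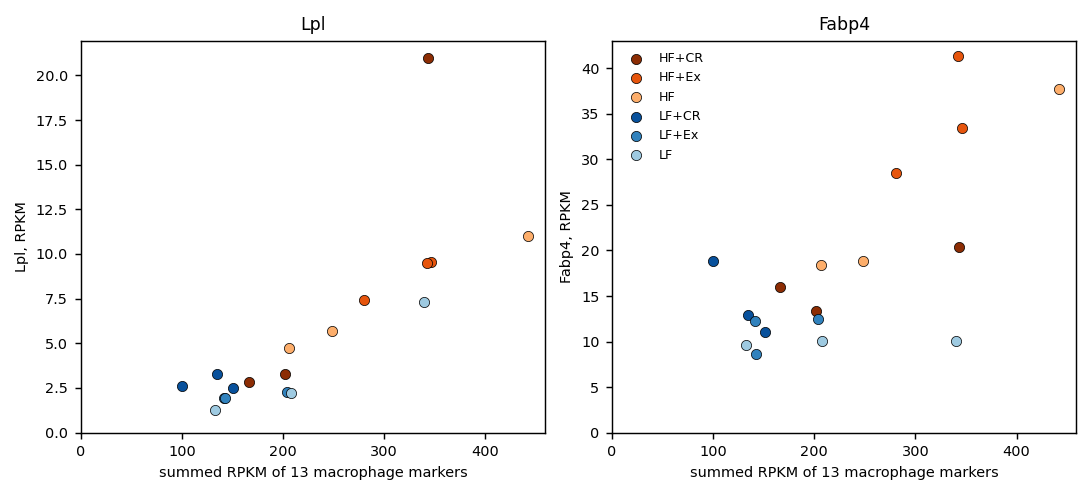
Level of Lpl (left) and Fabp4 (right) in RPKM against the summed RPKM of 13 macrophage markers, with a point for each of 18 libraries coloured by group. Lpl rises with the sum, HF+CR 3 lies far above the other points at 20.96 RPKM, and LF 2 has 340 RPKM of markers with Fabp4 at only 10.1 RPKM.

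Fabp4, the fatty acid carrier of fat cells and macrophages, had the smallest adjusted p of the 7 genes on HF averaged over treatments. It measured 13.3, 15.96 and 20.4 RPKM in HF+CR livers, 33.5, 41.4 and 28.6 in HF+Ex livers and 18.9, 37.8 and 18.4 in HF livers, against 18.8, 12.9 and 11.002 in LF+CR livers, 12.2, 8.67 and 12.4 in LF+Ex livers and 10.0, 10.1 and 9.60 in LF livers. HF+Ex and HF libraries were all above their low-fat counterparts, whereas HF+CR and LF+CR overlapped through LF+CR 1, the library with most pancreas RNA. Such separation held for 24.2% of all genes tested in HF+Ex over LF+Ex and for 7.96% in HF over LF. The log2 difference was 0.98 ± 0.15 on HF averaged over treatments (SE, adjusted p = 0.000676, limma) and 1.55 ± 0.25 in HF+Ex against LF+Ex (adjusted p = 0.00656). In HF against LF it was 1.18 ± 0.25, just outside the threshold (adjusted p = 0.0537, limma). It was inside without HF+CR 3 (0.0447) or LF+Ex 3 (0.0489), libraries outside that comparison. In HF+CR against LF+CR the difference was 0.22 (95% interval -0.32 to 0.75), and 0.56 without the 3 pancreas libraries (adjusted p = 0.417, limma). The CR by diet interaction, -0.96 ± 0.36, did not pass (adjusted p = 0.292).

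Defining fat cell genes were at or near 0 beside Fabp4. Adipoq was listed at 0 in 14 libraries and reached 0.567 RPKM at most, Lep was listed at 0 in 17, and Plin1 was at 0 in 15 with a maximum of 0.124 RPKM. The 6 adipocyte markers summed to 2.56 to 4.22 RPKM in HF+CR livers, 4.42 to 9.42 in HF+Ex livers and 6.27 to 17.6 in HF livers, against 0.326 to 8.88 in LF+CR livers, 2.75 to 6.16 in LF+Ex livers and 0.795 to 5.06 in LF livers. Cfd, at up to 14.5 RPKM, and Adrb3, at up to 3.75 RPKM, carried most of that sum. The 8.88 RPKM was LF+CR 1, where Adipoq also peaked, and the other LF+CR libraries summed to 0.326 and 0.434. Across the 18 libraries the adipocyte sum correlated with PPAR gamma 2 at r = 0.69, Mogat1 at 0.62, Fabp4 at 0.60 and Fabp2 at 0.49, and at 0.20, 0.20, 0.40 and -0.28 with group means removed. The part of fat cells in those differences was not tested. The correlation of Fabp4 with the macrophage sum was r = 0.64 over 18 libraries and 0.45 with group means removed, and the part of macrophages in its difference was not tested. PPAR gamma 2 (r = 0.67), Fabp2 (r = 0.68) and Mogat1 (r = 0.66) also went with the macrophage sum across libraries, at 0.15, 0.14 and 0.22 with group means removed, and its part in their differences was not tested either.

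Fabp2, the fatty acid binding protein best known from the small intestine, was the most abundant of the 7 genes per length of transcript. It measured 106, 132 and 112 RPKM in HF+CR livers, 126, 152 and 167 in HF+Ex livers and 163, 214 and 169.9 in HF livers, against 50.7, 79.0 and 66.0 in LF+CR livers, 110.1, 78.4 and 138 in LF+Ex livers and 124, 110.3 and 138 in LF livers. HF+CR libraries were all above LF+CR libraries and below HF libraries, as in 15.6% and 8.28% of all genes tested. HF libraries were all above LF libraries, as in 7.96%, and LF+CR libraries were all below LF libraries, as in 11.7%. Fabp2 was higher on HF averaged over treatments (log2 difference 0.62 ± 0.11, SE, adjusted p = 0.00202, limma) and in HF+CR against LF+CR (0.85 ± 0.20, adjusted p = 0.0141). It was lower with CR averaged over both diets (-0.78 ± 0.14, adjusted p = 0.00455) and in LF+CR against LF (-0.93 ± 0.20, adjusted p = 0.0126).

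The calls for Fabp2 within a diet or treatment rest on few libraries. LF+CR against LF was lost without LF+CR 1 (adjusted p = 0.0633, limma), and HF+CR against LF+CR was lost without LF+CR 1 (0.0778) or HF+CR 2 (0.0599). LF+CR 1 was the library with most pancreas RNA. The averaged calls held in every alternative run, with adjusted p up to 0.0146 for HF and 0.0375 for CR. Intestinal markers other than Fabp2 were at or near 0: Cdx2, Lct, Sis and Alpi were listed at 0 in all 18 libraries, and the 7 enterocyte markers summed to at most 0.118 RPKM.

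Mogat1 encodes monoacylglycerol acyltransferase 1, which joins a fatty acid to monoacylglycerol and is a known PPAR gamma target in fatty mouse liver. It measured 0.873, 1.06 and 0.260 RPKM in HF+CR livers, 5.19, 8.35 and 6.13 in HF+Ex livers and 4.63, 7.86 and 7.17 in HF livers, against 0.230, 0.361 and 0.179 in LF+CR livers, 0.776, 0 and 3.98 in LF+Ex livers and 4.94, 2.28 and 1.39 in LF livers. Every HF+CR library was below every HF library, and every LF+CR library was below every LF library, as in 8.28% and 11.7% of all genes tested. HF and LF libraries overlapped through LF 1. Mogat1 fell with CR averaged over both diets (log2 difference -1.83 ± 0.31, SE, adjusted p = 0.00381, limma) and in HF+CR against HF (-2.13 ± 0.44, adjusted p = 0.0295). LF+CR against LF was just outside (-1.52 ± 0.44, adjusted p = 0.0538), and inside without HF+CR 3, LF+Ex 2, LF+Ex 3 or LF 3 (0.0117 to 0.0498). Of these libraries only LF 3 belongs to that comparison.

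On the diet axis, Mogat1 was higher on HF averaged over treatments (log2 difference 1.11 ± 0.26, SE, adjusted p = 0.00716, limma) and in HF+Ex against LF+Ex (1.85 ± 0.44, adjusted p = 0.0306). In HF+CR against LF+CR its difference was 0.43 (95% interval -0.51 to 1.38). The HF+CR against HF call was lost when any HF+CR or HF library was left out, with adjusted p of 0.0519 to 0.127, and the HF+Ex against LF+Ex call was lost without any HF+Ex library, LF+Ex 1 or LF+Ex 2 (0.0654 to 0.123). LF+Ex 2 is the library with Mogat1 listed at 0, which may be a failed estimate, and without it the HF+Ex against LF+Ex difference was 1.32. Without the 3 pancreas libraries the averaged HF call stood at 0.0520. The averaged CR call held in every alternative in which Mogat1 was tested, with adjusted p up to 0.0273.

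**Figure D3:**
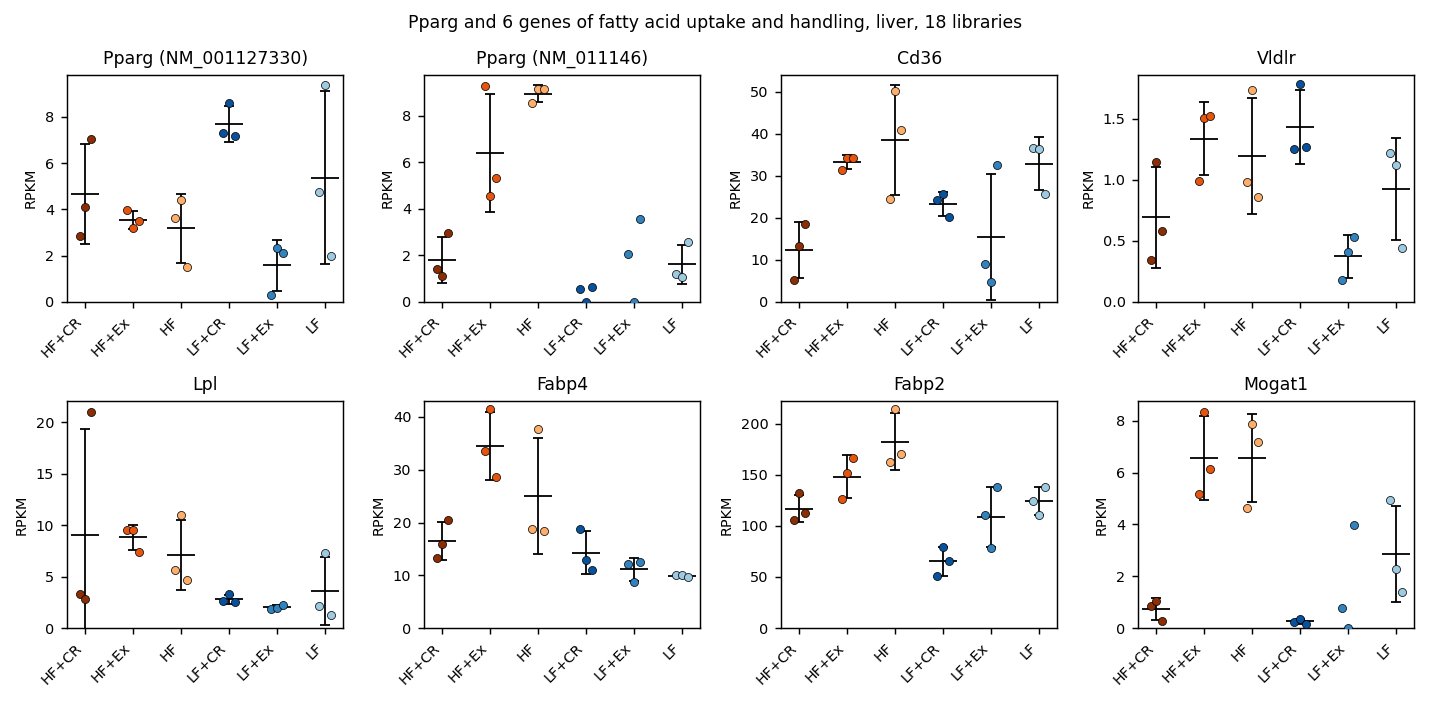
Levels in RPKM of both Pparg rows and the 6 other genes in each of 18 liver libraries, by group. Points are libraries, and the bars give mean ± SD over 3 libraries except where a library is listed at 0. PPAR gamma 2 is high in HF+Ex and HF livers and low in every other group. Mogat1 is high in HF+Ex and HF livers and has its lowest means in both CR groups. Lpl in HF+CR is set by the library at 20.96 RPKM.

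Over all 7 genes and their main rows, 4 were called higher on HF averaged over treatments (Lpl, Fabp4, Fabp2 and Mogat1) and none lower, where 14% of all genes tested were called higher and 9.67% lower. With CR averaged over both diets 2 fell (Fabp2 and Mogat1), where 4.04% of all genes were called lower and 3.15% higher. In HF+Ex against LF+Ex 3 were higher (Vldlr, Fabp4 and Mogat1), beside 4.13% of all genes. In HF+CR against HF 1 was lower beside 0.772%, in LF+CR against LF 1 was lower beside 3.49%, and in HF+CR against LF+CR 1 was higher beside 4.7%. In HF against LF none was called, beside 0.405% of all genes in either direction. Exercise gave no call for the 7 genes and none among 10358 genes by limma, in HF+Ex against HF (377 genes at an unadjusted p under 0.05), in LF+Ex against LF (944), averaged (729) or in its interaction with diet (525). The CR by diet interaction called 1.02% of all genes and none of these 7.

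**Figure D4:**
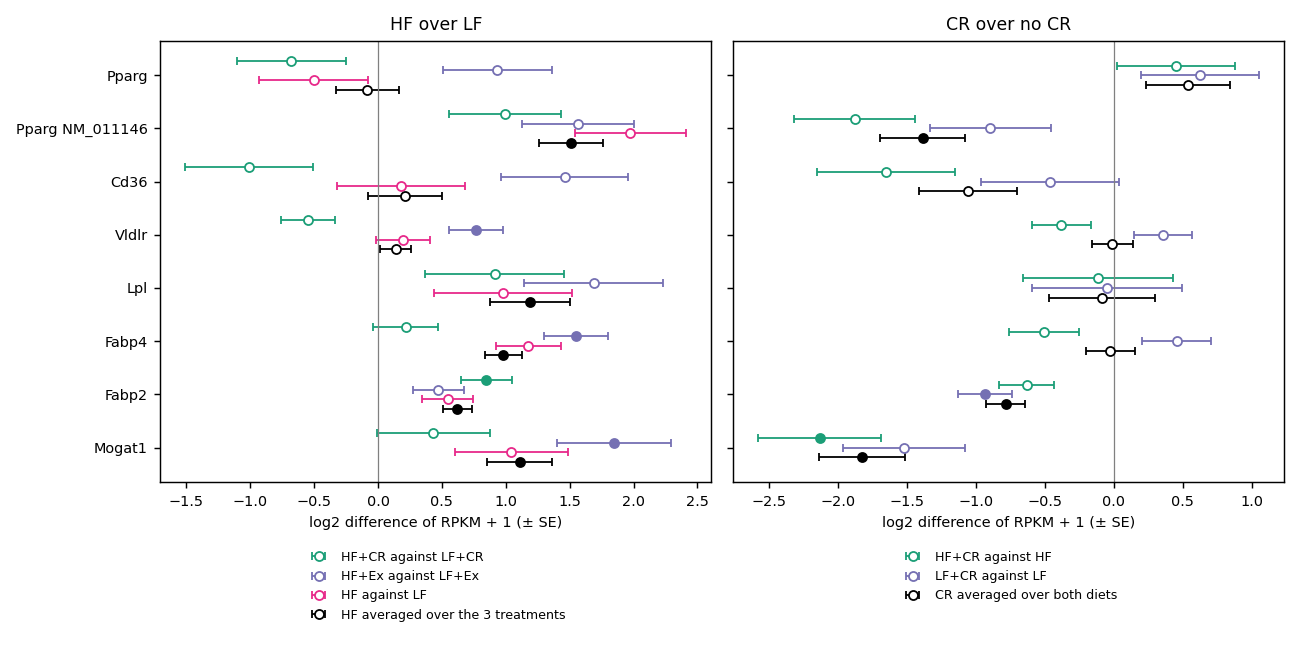
Log2 differences of RPKM + 1 with their SE for the 7 genes and the PPAR gamma 2 row, HF over LF on the left and CR over no CR on the right. Filled points have an adjusted p under 0.05. PPAR gamma 2 lies at 1.51 for HF and -1.39 for CR in the averages, whereas the main Pparg row lies at -0.08 and 0.54.

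Levels in neighbouring groups mostly overlapped. Ordered by mean, PPAR gamma 2 was highest in HF, then HF+Ex, LF+Ex, HF+CR, LF and LF+CR, and only HF+Ex over LF+Ex and LF over LF+CR were neighbours without overlap. Of all genes tested, each by its row of highest mean, 24.2% and 11.7% separated in those ways. Fabp2 was highest in HF, then HF+Ex, LF, HF+CR, LF+Ex and LF+CR, and all neighbours overlapped. Mogat1 was highest in HF+Ex, then HF, LF, LF+Ex, HF+CR and LF+CR, again with every pair of neighbours overlapping. Across the 18 libraries NM_011146 correlated with Fabp2 (r = 0.81), Mogat1 (r = 0.81), Fabp4 (r = 0.70), Lpl (r = 0.55), Cd36 (r = 0.53) and Vldlr (r = 0.09) on the log2 scale. With group means removed these were 0.35, 0.32, 0.33, 0.15, 0.57 and -0.36. Libraries of a group share their treatment, so the first set mostly restates the group differences. The main Pparg row correlated with Fabp2 at r = -0.38 and with Mogat1 at r = -0.20.

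Most tested genes of a list of known PPAR gamma targets fell with CR. Of 16 listed genes of fatty liver and fat cells, 13 were tested, and 9 were lower and none higher with CR averaged over both diets, beside 4.04% and 3.15% of all genes, with a median log2 difference of -0.84 against 0.01 for all genes. The lipid droplet genes were foremost: Plin4, a coat protein, by -2.61 ± 0.36 (SE, adjusted p = 0.000885, limma), Cidec, which fuses droplets, by -3.55 ± 0.58 (0.00287), Fitm2 by -0.84 ± 0.14 (0.00292) and Fitm1, which like Fitm2 partitions triglyceride into droplets, by -1.85 ± 0.31 (0.00319). In the fits without 1 library, 6 to 10 of the 13 were lower. The count was 6 without LF 1, without LF+CR 2 or without both bile duct libraries. The list was put together with earlier results of these data known, and is no independent evidence of its direction.

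Within the diets, 3 of 13 were lower in HF+CR against HF (Plin4, Cidea and Cidec), beside 0.772% of all genes, and 5 in LF+CR against LF (Fitm2, Fitm1, Cidec, G0s2 and Gpd1), beside 3.49%. The first count was 1 without HF+CR 1, HF+CR 2, HF 2 or HF 3. The second was 1 without LF 1, 2 without LF+CR 2, 3 without LF+CR 1 or LF+CR 3, and 8 without LF 3. Cidea, a droplet fusion gene scarcely expressed in lean liver, measured 0.443, 0.0949 and 0.271 RPKM in HF+CR livers, against 44.9, 72.2 and 48.0 in HF livers. Every HF+CR library was far below every HF library, where 8.28% of all genes tested had all HF+CR libraries below HF libraries.

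On the diet axis the target list was mixed. Averaged over treatments, 5 of 13 were higher on HF and 3 lower, beside 14% and 9.67% of all genes, with a median log2 difference of 0.48 against 0.02 for all genes. Fitm1 (1.09 ± 0.25, SE, adjusted p = 0.00728, limma) and Cidea (2.43 ± 0.58, 0.00819) were higher. Pck1, an enzyme of gluconeogenesis and of glycerol formation in fat cells, was lower (-1.25 ± 0.19, adjusted p = 0.000875), as was Plin5 (-0.49 ± 0.12, 0.0103), a droplet protein of oxidative tissues. Without the 3 pancreas libraries 1 was called higher and 1 lower.

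**Figure D5:**
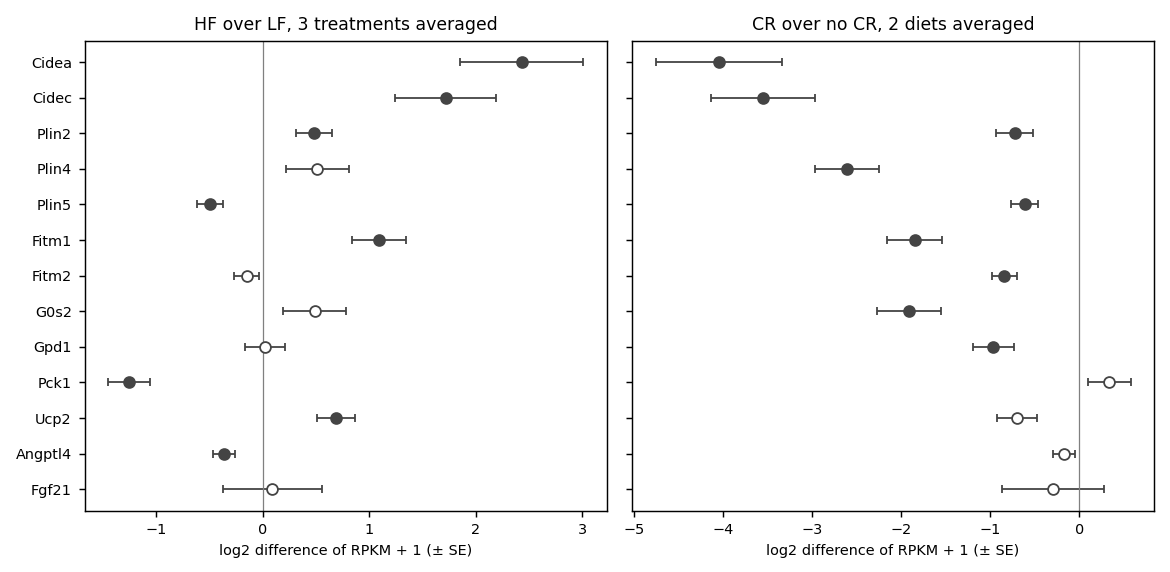
Log2 differences of RPKM + 1 with their SE for 13 tested genes of the PPAR gamma target list, HF over LF averaged over 3 treatments (left) and CR over no CR averaged over 2 diets (right). Filled points have an adjusted p under 0.05. On the right 9 genes lie below 0 and are filled, and on the left Pck1 lies at -1.25 and Cidea at 2.43.

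Other fatty acid carriers moved in both directions. Of 20 listed transporters, binding proteins and acyl-CoA synthetases 14 were tested, and with CR averaged over both diets 4 rose and 4 fell, beside 3.15% and 4.04% of all genes, with a median of -0.06 against 0.01 for all genes. Slc27a1 (adjusted p = 0.000667, limma) and Slc27a2 (-0.60 ± 0.08, SE, adjusted p = 0.000713), fatty acid transport proteins, fell. Slc27a1 measured 2.43, 1.38 and 3.19 RPKM in HF+CR livers, 4.01, 4.26 and 4.20 in HF livers, 1.58, 1.83 and 1.297 in LF+CR livers and 6.43, 5.43 and 4.62 in LF livers, with no overlap between CR and no CR on either diet. Of all genes tested, 8.28% lay wholly lower in HF+CR against HF and 11.7% in LF+CR against LF. Fabp5, the epidermal fatty acid binding protein, rose (1.90 ± 0.36, adjusted p = 0.00646), as did Acsl5 (0.68 ± 0.13, 0.00696), an acyl-CoA synthetase. Slc27a2 also passed the CR by diet interaction (0.91 ± 0.16, adjusted p = 0.0112).

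Slc27a2 measured 629, 599 and 642 RPKM in HF+CR livers, 715, 653 and 711 in HF livers, 352, 393 and 386 in LF+CR livers and 832, 708 and 820.02 in LF livers. LF+CR libraries were well below every other library of that gene. Fabp5 ran opposite to Fabp4 on the diet axis, with 11.8, 20.1 and 49.4 RPKM in HF+CR livers, 11.5, 14.1 and 10.9 in HF+Ex livers and 8.18, 13.2 and 6.34 in HF livers, against 222, 111 and 318 in LF+CR livers, 35.6, 88.1 and 31.3 in LF+Ex livers and 48.1, 18.8 and 41.0 in LF livers. It was lower on HF averaged over treatments (-2.24 ± 0.30, SE, adjusted p = 0.000347, limma). On HF averaged over treatments 2 of the 14 were higher, a share near the 14% of all genes, and 3 lower, beside 9.67%. The count of higher genes was 1 without any library other than HF+CR 3, HF+Ex 1, HF 3, LF+CR 1, LF 1 or LF 2.

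Of 20 listed genes of lipases and lipoprotein uptake 18 were tested, with a median of -0.14 against 0.01 for all genes with CR averaged over both diets. Among them 1 rose and 1 fell, beside 3.15% and 4.04% of all genes. The gene that fell was Apoe, a lipoprotein ligand of the LDL receptor family (-0.43 ± 0.12, SE, adjusted p = 0.0488, limma). That call was lost without any library other than HF+CR 3, HF 3, LF+CR 1 or LF 3, with adjusted p of 0.0550 to 0.122. On HF averaged over treatments, Angptl4, an inhibitor of lipoprotein lipase and itself a PPAR target, was the only gene of the list called lower (-0.36 ± 0.10, adjusted p = 0.0182) and none was called higher, beside 9.67% and 14% of all genes. The Angptl4 call was lost without the pancreas libraries (0.0812), and 2 or 3 genes were lower without HF+CR 2, HF+CR 3, HF 1, LF+Ex 3, LF 2 or LF 3.

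Glyceride synthesis genes, the pathway alongside Mogat1, were 12 tested of 13 listed. With CR averaged over both diets 2 rose, beside 3.15% of all genes, Gpam (0.59 ± 0.11, SE, adjusted p = 0.00558, limma), which attaches the first fatty acid to glycerol phosphate, and Lpin2 (0.73 ± 0.21, 0.0465), a phosphatidate phosphatase. Gpat4 fell (-0.33 ± 0.08, adjusted p = 0.0254), beside 4.04%, and the median of the 12 was -0.10. The Lpin2 call was lost without any library other than HF+CR 1, HF 3, LF+Ex 2 or LF+Ex 3 (0.0523 to 0.109), and the Gpat4 call without HF 1, HF 3, LF+CR 3 or LF 1 (0.0509 to 0.0550). In fits without HF+CR 3, LF+CR 1 or LF 3, 2 genes of the list fell. On HF averaged over treatments 2 were higher and 3 lower, of which the first is near the 14% of all genes and the second stands beside 9.67%. Gpat4 (-0.40 ± 0.07, adjusted p = 0.00136, limma) and Dgat1 (-0.26 ± 0.07, 0.0132) were among the lower, and the Dgat1 call was lost without the pancreas libraries (0.0766). Without 1 library 1 to 2 were higher and 2 to 4 lower, with 1 higher without any library other than HF 1, LF+CR 1, LF+CR 3, any LF+Ex library or LF 1.

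Of 17 tested partners, co-regulators and related receptors of PPAR gamma, none was called with CR averaged over both diets, where their median was -0.11, and 1 was called without LF+CR 2, LF 1 or LF 3. On HF averaged over treatments Rxrg, a retinoid X receptor, was higher (0.38 ± 0.10, adjusted p = 0.0155) and Ppargc1a, a coactivator, lower (-0.35 ± 0.11, 0.0335), beside 14% and 9.67% of all genes. The Ppargc1a call was lost in 9 of 18 fits without 1 library, those without HF+CR 1, HF+Ex 1, HF+Ex 2, HF 1, LF+CR 1, LF+CR 3, LF+Ex 1, LF+Ex 2 or LF 1 (0.0556 to 0.0706), and without the pancreas libraries (0.184).

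Genes with the pattern most like each of the 7 were ranked by Pearson correlation of log2(RPKM + 1) over the 18 libraries. For the main Pparg row these were Timm50, Gstm3, Ppp1r14b, Srgap2 and Bms1, with r of 0.82 to 0.85. For the PPAR gamma 2 row they were Ccdc17, Dhrs7b, Themis, Ear2 and Kbtbd11, with r of 0.85 to 0.91, and the ranked genes of the rows had no name in common. Mogat1 was followed by Cidea, Clstn3 and Cd81 (r of 0.93 to 0.95). Dtx3l and Cog4 were among those ranked for Fabp2 (0.94 and 0.93). Lpl was followed by Myof, Oxct1 and Itgax, a myeloid integrin (0.96 to 0.98). Fabp4 was followed by Rgs1, Sdcbp2 and Orm3 (0.88 to 0.92), Cd36 by Defb1, Cyp2a22 and Gprc5b (0.88 to 0.90), and Vldlr by Mpc1, Slc22a29 and Cyp2b9 (0.85 to 0.88).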

How the data were processed

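Liver polyA RNA-seq from 18 libraries was deposited by the authors as RPKM per RefSeq transcript; TopHat 1.4.1, Cufflinks 1.3.0 and mm10 are named in the submitters' processing notes. The deposited values carry no counts or library sizes, so no count model was used. The 7 genes, the lists and the alternatives were chosen with earlier results of these data known. Of 30582 rows, 29438 were named through RefSeq and 179 through GENCODE M21, and 965 kept their identifier. Each gene was represented by its row of highest mean. Genes reaching 1 RPKM in 3 or more libraries were fitted with limma 3.58.1 in R 4.3.3 on log2(RPKM + 1), with 6 group means, an intensity trend and Benjamini-Hochberg adjustment over all genes tested. The same was done over single rows, for the rows of a gene. All 7 genes were named in every comparison. List genes were named by adjusted p among those called, at most 4 for a list in any comparison, and other list genes only where a count of 5 or fewer is spelled out. The fit was tested on simulated data. Alternatives changed the pseudocount, filter, scaling, trend, samples, rows or libraries. Results for some genes the naming rule selects are not reported here.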

Additional observations from a re-analysis of the deposited data

How the results depend on the processing

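RPKM without read counts gives no counting error for a value, and low genes such as Vldlr and Mogat1 are the least certain at an estimated 23400000 to 44900000 fragments per library. Log2 differences are given below. Of 96 differences (7 genes and the PPAR gamma 2 row in 12 comparisons), 79 kept their direction under all of the settings other than leaving out 1 library. The count of 4 genes higher on HF averaged over treatments was 4 in every fit without 1 library. The other counts of called genes ranged, without 1 library, over 0 to 2 in HF+CR against HF, 0 to 1 in HF against LF, 0 to 2 in LF+CR against LF, 0 to 1 in HF+CR against LF+CR, 1 to 4 in HF+Ex against LF+Ex and 2 to 3 with CR averaged, and were 0 in the exercise comparisons and both interactions.

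In HF+CR against HF the count was 0 in place of 1 with a pseudocount of 0.1, with no filter, with a mean of at least 5 RPKM, and when the pancreas or the bile duct libraries were left out. In HF against LF it was 1 in place of 0 with median-of-ratios scaling, with quantile normalization and without the bile duct libraries. In LF+CR against LF and in HF+CR against LF+CR it was 0 in place of 1 with only the groups compared or without the pancreas libraries, and 2 with RefSeq rows summed. In HF+Ex against LF+Ex it was 1 in place of 3 with no filter, with a mean of at least 5 RPKM and without the pancreas libraries, and with CR averaged 1 in place of 2 with a mean of at least 5 RPKM. That filter leaves Pparg, Vldlr and Mogat1 untested; otherwise the cause was not tested. The fit with no filter takes in 9020 genes at 0 in every library, and limma's prior degrees of freedom were 0.759 in it, against 3.26.

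Replicate numbers did not pair the libraries, with correlations of deviations between same-numbered libraries of -0.49 to 0.31, and 6 of 18 libraries correlating best with a library of their own number. With the replicate block the count in HF+CR against HF was 0, with Mogat1 at an adjusted p of 0.0571, and 101 genes were called in place of 145. In HF against LF the block gave 14 genes in place of 42.

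Directions reversed only for differences that were not called. With rows summed, Pparg stood at -0.88 in HF+CR against HF, -0.29 in HF+Ex against HF, 0.78 in HF against LF, -0.31 with CR averaged and 0.59 with HF averaged, the last of them called, and Vldlr at -0.035 in HF+Ex against HF. Without the pancreas libraries Lpl stood at 0.25 in HF+CR against HF, 0.11 with CR averaged, 0.0032 with Ex averaged and 0.27 in the CR by diet interaction, Vldlr at 0.091 with CR averaged and Pparg at 0.036 in the CR by diet interaction. Without the bile duct libraries Lpl stood at 0.49 in LF+CR against LF, 0.18 in LF+Ex against LF and 0.26 with Ex averaged, Vldlr at 0.046 with CR averaged and Fabp2 at 0.0070 in the Ex by diet interaction. With a pseudocount of 0.1, Lpl was at 0.014 in LF+CR against LF, Pparg at 0.028 with HF averaged and PPAR gamma 2 at 0.23 in the Ex by diet interaction. Median-of-ratios scaling gave 0.021 and quantile normalization 0.018 for PPAR gamma 2 in LF+Ex against LF, and 0.068 and 0.060 for Lpl with Ex averaged.

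Reversals without 1 library touched 20 differences. Lpl ranged over -0.93 to 0.33 in HF+CR against HF, -0.45 to 0.49 in LF+CR against LF, -0.77 to 0.18 in LF+Ex against LF, -0.49 to 0.19 with CR averaged, -0.21 to 0.26 with Ex averaged and -0.88 to 0.38 in the CR by diet interaction. Pparg ranged over -0.14 to 0.41 in HF+Ex against HF, -0.24 to 0.064 with HF averaged and -0.62 to 0.28 in the CR by diet interaction. PPAR gamma 2 ranged over -0.53 to 0.57 in LF+Ex against LF, -0.51 to 0.042 with Ex averaged and -1.05 to 0.048 in the Ex by diet interaction. Cd36 ranged over -0.44 to 0.069 in HF+Ex against HF and -0.035 to 0.47 in HF against LF, and Vldlr over -0.0038 to 0.28, -0.0036 to 0.31 and, with CR averaged, -0.11 to 0.074. Mogat1 ranged over -0.19 to 0.14 in HF+Ex against HF, Fabp4 over -0.13 to 0.14 with CR averaged and Fabp2 over -0.29 to 0.11 in the Ex by diet interaction.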
